A study of Solanum lycopersicum with 12 samples.

Results

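A small set of tomato transcripts differed from untreated plants in opposite directions when the seeds had been coated with the *Trichoderma harzianum* transformants amdS6 and amdS122. Of 10038 tomato probe sets on the Affymetrix Tomato Genome Array, 73 lay at least 0.3 log2 units away from the control mean with each transformant but in opposite directions. They were chosen from the group means of the deposited log2 signals, so their differences with amdS6 and amdS122 are given as a description, with no test. In 72 of the 73 probe sets (0.717% of all) the signal was higher with amdS6 and lower with amdS122. In the remaining 1, which represents the gene DFR, it was lower with amdS6 and higher with amdS122. Both differences are taken from the same 3 control arrays.

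The arrays were hybridised with total RNA from shoots of tomato plants at 3 weeks of age (*Solanum lycopersicum*; labelled both as aerial parts and as leaves), with 3 biological replicates in each of 4 groups. Control plants grew from seeds without fungus, and the other groups from seeds coated with spores of the wild-type strain T34, of amdS6 or of amdS122. Both transformants carry the *Aspergillus nidulans* acetamidase gene amdS, expressed from the gpdA promoter in a T34 background. The paper describes more copies of amdS in amdS122 than in amdS6, and a higher level of its transcript in fungal cultures. Each transformant is represented by 1 fungal line, so the effect of amdS and that of the individual line cannot be told apart. Between amdS6 and amdS122, the copy number or expression of amdS likewise cannot be separated from other differences between the lines. All groups were raised in autoclaved soil in the greenhouse. The leaf genes CAB4, CAB5, CAB6A and PSBO reached log2 signals of 14.0 to 14.3 on the arrays, whereas the fruit genes PG2, E8 and RIN stayed between 3.59 and 4.38. Psy1, a carotenoid synthesis gene listed with the fruit markers, was bright on 2 of its 3 probe sets (control means of 10.57 and 12.01) and dim on the other (5.49). The root gene RSI-1 had group means of 6.57 in the control, 6.67 with T34, 6.90 with amdS6 and 7.25 with amdS122, and the flower gene AG1 of 4.54, 5.27, 4.39 and 4.62 in the same order, and the part of either in the results was not tested.

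*T. harzianum* lives in the soil and on roots, and plants that carry it can change their growth and defense programs in organs the fungus does not reach. Among the genes discussed below, B-type cyclin-dependent kinases and A- and B-type cyclins drive plant cells through DNA replication and mitosis, and are transcribed mainly in dividing cells such as those of the shoot apex and young leaves. Wounding and chewing insects induce another set of leaf proteins in tomato through jasmonic acid, including proteinase inhibitors, arginase and leucine aminopeptidase. The proteinase inhibitors among them hamper digestion in the insect gut. Enzymes that cut and rejoin xyloglucan loosen or rebuild the wall of expanding cells.

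**Figure D1:**
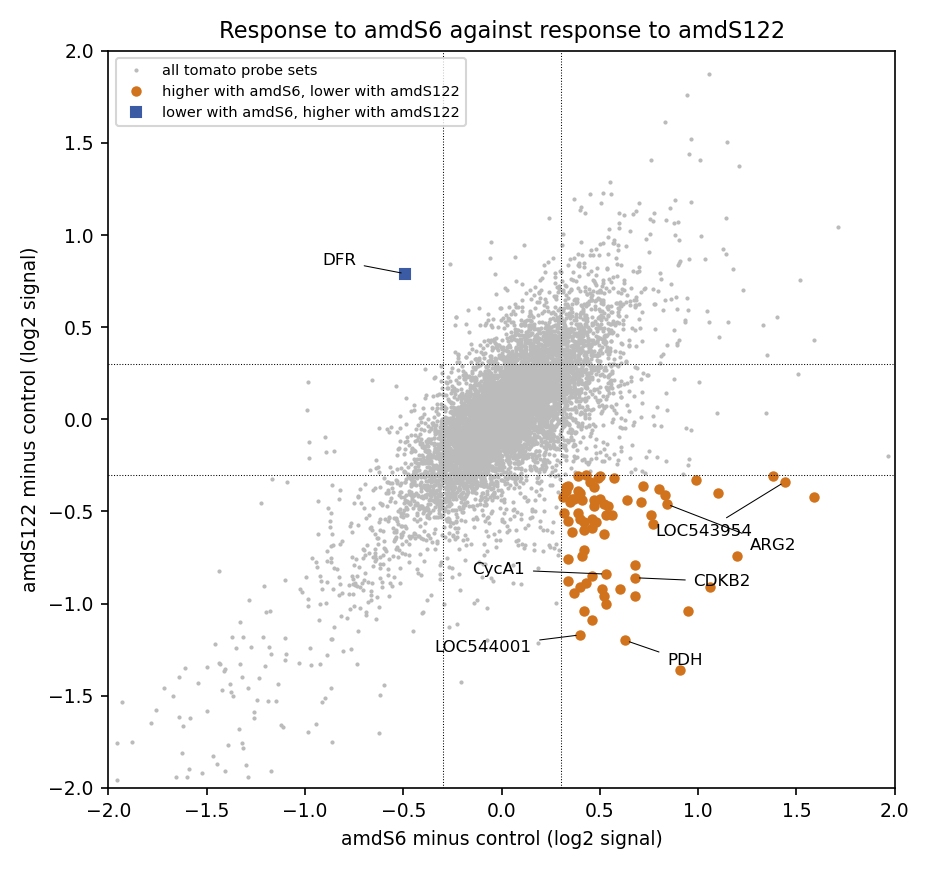
Differences of group means from control for amdS6 (horizontal axis, log2 signal) and amdS122 (vertical axis, log2 signal), with 1 point per probe set, dotted lines at 0.3 in each direction, and 60 probe sets beyond 2 on either axis not drawn. The 72 probe sets higher with amdS6 and lower with amdS122 fill the lower right corner, and DFR stands alone in the upper left.

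Among the 72 probe sets, the signal with amdS6 exceeded the control mean by 0.31 to 1.59 log2 units (median 0.48), and the signal with amdS122 lay 0.31 to 1.36 units below it (median of the differences -0.52). The fall was the larger of the changes in 43 of them and the rise in 29. A 2-fold difference was reached by 6 probe sets with amdS6 and by 6 with amdS122, so most of these differences were modest. The 3 amdS6 arrays all lay above the 3 control arrays in 71 of the 72 probe sets, where 30.3% of all probe sets had that order, and the 3 amdS122 arrays all lay below the control arrays in 72 of 72, against 22.8% of all. Both separations held together for 71 probe sets, against 2.79% of all, and the exception was LesAffx.31716.1.S1_at, whose amdS6 arrays read 7.14, 7.73 and 7.56 beside control arrays of 7.14, 7.13 and 6.88. The rule that chose the probe sets sets these counts, and nothing is read from them.

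The rule averaged the amdS6 and amdS122 arrays, so their medians are given array by array as a description. The median of the 72 probe sets, relative to their control means, was 0.49, 0.48 and 0.50 on the amdS6 arrays and -0.52, -0.52 and -0.55 on the amdS122 arrays. On the T34 arrays it was -0.03, 0.00 and 0.03, inside the range of the control arrays (-0.05, 0.00 and 0.05). The 72 were ordinary in brightness, with a median control signal of 8.00 against 7.82 for all probe sets. Their spread within groups was ordinary too, with a median SD of 0.077 against 0.072.

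**Figure D2:**
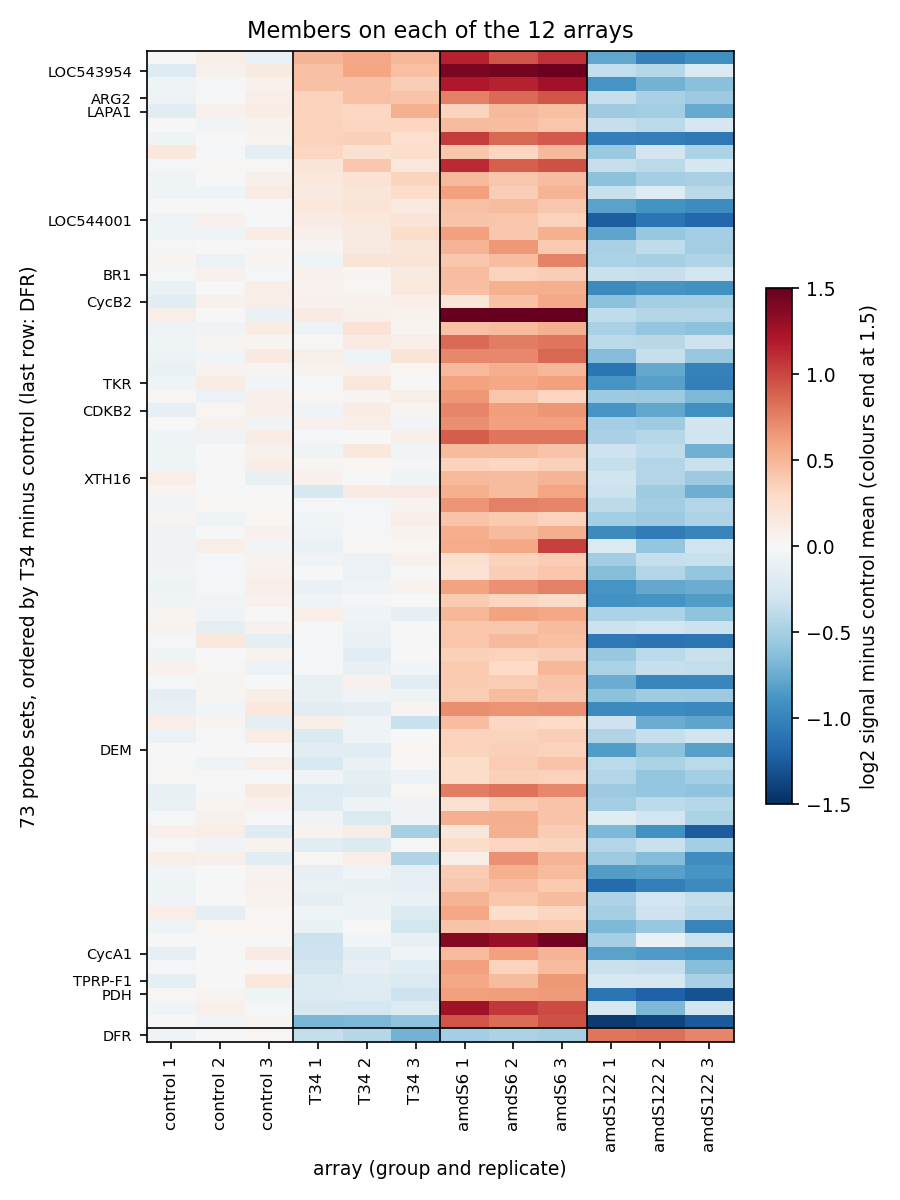
Log2 signal minus control mean (colour; red above, blue below, colours end at 1.5) of the 73 probe sets (rows, ordered by T34 minus control, with DFR last) on the 12 arrays (columns, 3 per group). All 72 upper rows are above the control mean on each amdS6 array and below it on each amdS122 array, whereas the T34 arrays are split, with 30, 36 and 40 of the 72 above it.

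The probe sets were also chosen on only the arrays of a pair of replicate numbers, and read on the arrays of the remaining number. Most then had the same order of signs on those arrays. Leaving out the arrays of replicate 1, the rule took 75 probe sets in the direction of the 72, and 73 of them were higher with amdS6 and lower with amdS122 on the arrays it had not used. The corresponding counts were 77 of 78 for replicate 2 and 73 of 74 for replicate 3, whereas 11.7%, 11.9% and 14.5% of all probe sets had that order on the same arrays. Both differences again reached 0.3 in 50, 56 and 52 of these probe sets. Of the probe sets chosen, 66, 65 and 65 were also among the 72, so the counts describe how alike the replicates of the same groups were. They are no separate test of the opposite response, since both differences on the held-out arrays share the same control array. In the direction of DFR the rule took 3 probe sets each time, of which 3, 2 and 3 kept the order and DFR alone passed the limit again each time.

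Genes of the mitotic cycle formed a first group among the annotated members. CDKB2, a plant-specific B-type cyclin-dependent kinase of the transition into mitosis, gave log2 signals of 8.10, 8.25 and 8.31 on the control arrays, 8.17, 8.33 and 8.26 with T34, 8.95, 8.85 and 8.88 with amdS6, and 7.34, 7.44 and 7.30 with amdS122. All amdS6 arrays lay above, and all amdS122 arrays below, the interval covered by control and T34. The difference from control was 0.68 with amdS6 (1.60-fold higher) and -0.86 with amdS122 (1.81-fold lower), so that plants treated with the different transformants differed 2.89-fold.

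CycA1, an A-type cyclin, had control signals of 7.94, 8.07 and 8.18, T34 signals of 7.75, 7.90 and 8.00, amdS6 signals of 8.53, 8.67 and 8.57 and amdS122 signals of 7.26, 7.21 and 7.18. It was thus 0.53 higher with amdS6 and 0.84 units lower with amdS122 (difference -0.84), while the T34 and control arrays overlapped. CycB2, a B-type cyclin, was the dimmest named member of the 72, with control signals of 5.93, 6.15 and 6.19, T34 signals of 6.16, 6.16 and 6.19, amdS6 signals of 6.27, 6.53 and 6.66, and amdS122 signals of 5.47, 5.58 and 5.59. Its differences were 0.40 and -0.54, and its amdS6 arrays came close to the control arrays without overlapping them.

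The other 12 probe sets annotated to cell division or chromatin missed the limit, but 7 of them (58.3%) had the same order of signs, against 11.6% of all probe sets. On the amdS6 side the differences of these 7 were small. CDKA1 differed by 0.06, CycA2 by 0.07, CYCD3 by 0.12 and CDKB1 by 0.14. The gene krp1 differed by 0.14, 1 probe set of H1 by 0.26 and krp2 by 0.28. Counting the 3 members, which have this order by the rule, 10 of 15 probe sets (66.7%) were above control with amdS6 and below it with amdS122. None was the other way round. The medians of the 15, members included, were 0.14 with amdS6, -0.33 with amdS122 and -0.07 with T34, against 0.02, 0.03 and 0.00 for all probe sets. By limma with Benjamini-Hochberg adjustment over all probe sets, 4 of the 12 were higher with amdS6 and 0 lower (29.0% and 20.9% of all probe sets), and 6 were lower with amdS122 (22.0%), while CycA3 was higher (0.10, adjusted p = 0.073 by limma). At an unadjusted p under 0.05, 0 of the 15 were lower with amdS6. Those lower with amdS122 included CDKB1, a further B-type kinase (difference -0.54, adjusted p = 9.09e-05 by limma), and CycA2 (-0.60, adjusted p = 1.4e-06 by limma). PCNA, the sliding clamp of DNA polymerase, fell as well (-0.41, adjusted p = 2.66e-05 by limma). The CDK inhibitor gene krp2 was lower with amdS122 (-0.47, adjusted p = 0.00104 by limma) and higher with amdS6 (0.28, adjusted p = 0.0269 by limma), so the gene of this inhibitor moved in the same direction as the kinase CDKB2. CDKA1, the kinase present throughout the cycle, stayed near control with amdS6 (0.06) and amdS122 (-0.06). The p-values and calls for amdS6 and amdS122 come from the contrasts that the rule used, on a list chosen with earlier results known. They are given as a description, and nothing about a shared response of the list is read from them. In whole aerial parts, fewer dividing cells and less transcript per cell cannot be told apart.

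DEM, a gene named for the defective embryos and meristems of its mutant, followed the same course. Its signals were 7.63, 7.65 and 7.65 in the control, 7.48, 7.47 and 7.67 with T34, 7.97, 8.00 and 7.98 with amdS6 and 6.80, 7.02 and 6.83 with amdS122. The rise of 0.34 with amdS6 was close to the limit, whereas with amdS122 DEM was 1.70-fold lower. Its paralog DEM2 lay near control with both (-0.11 and -0.02). Of the 8 other meristem probe sets, 1 (12.5%) had the sign order of DEM, against 11.6% of all probe sets.

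**Figure D3:**
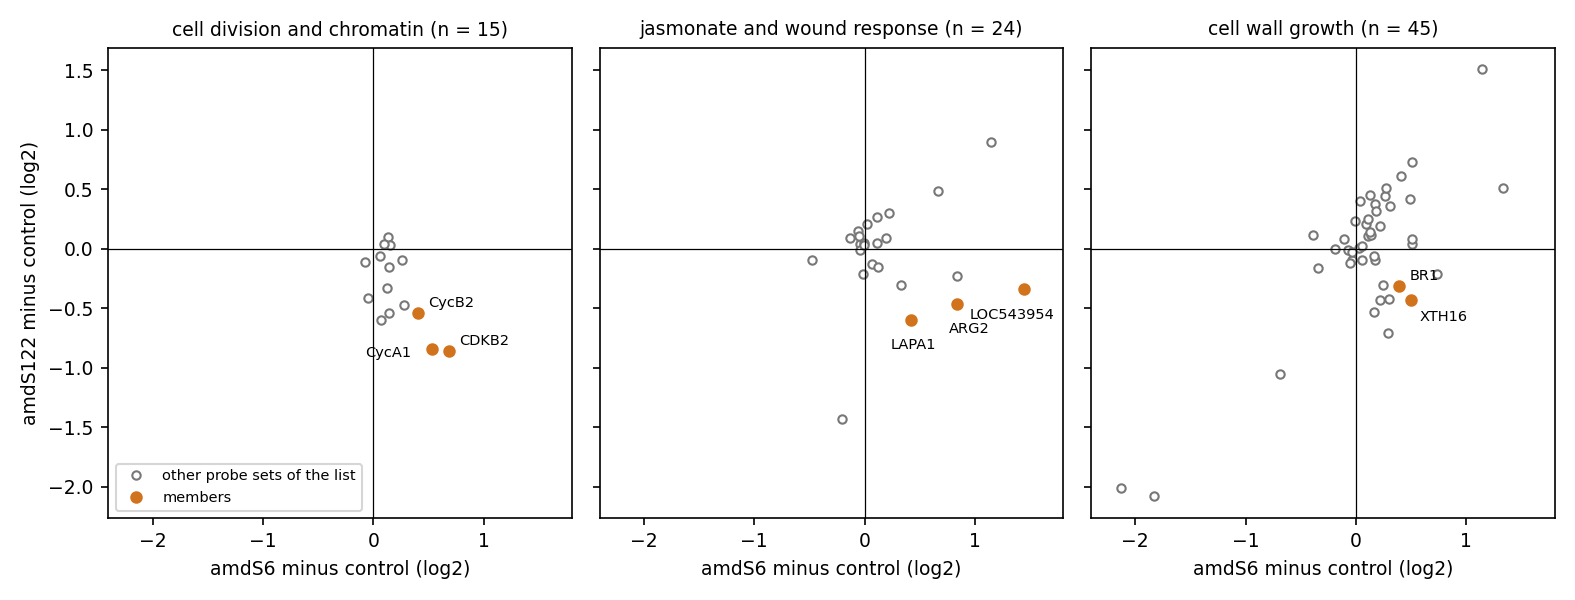
Difference from control with amdS6 (horizontal axis, log2) and amdS122 (vertical axis, log2) for probe sets annotated to cell division and chromatin, to jasmonate and wound response, and to cell wall growth; filled points are members of the 72, open points the other probe sets of each list. In the first panel 10 of 15 points fall in the lower right part, in the others 7 of 24 and 11 of 45.

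A second group held 3 wound-inducible defense genes. LOC543954, listed with the synonym PIIF and encoding a wound-induced proteinase inhibitor, gave 7.29, 7.54 and 7.61 in the control, 7.93, 8.07 and 7.93 with T34, 8.89, 8.91 and 8.95 with amdS6 and 7.11, 7.05 and 7.26 with amdS122. It was the named gene with the highest rise, 2.71-fold with amdS6, beside a 1.27-fold lower signal with amdS122. The T34 arrays stood apart from all other groups, above control and below amdS6.

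ARG2, an arginase that breaks down arginine, gave 7.07, 7.14 and 7.25 in the control, 7.50, 7.60 and 7.58 with T34, 7.90, 8.00 and 8.09 with amdS6 and 6.81, 6.66 and 6.60 with amdS122. The groups followed each other without overlap, from amdS122 through control and T34 to amdS6. This probe set may also bind the transcript of a related gene, since its identifier marks it as shared, and the ARG2 probe sets disagreed. A second one behaved alike with amdS6 (0.84) and fell short of the limit with amdS122 (-0.23), and a further, dim one, with a control signal of 4.40, was near control with both (0.11 and 0.05). LAPA1, the wound-induced leucine aminopeptidase A, gave 8.48, 8.70 and 8.75 in the control, 8.97, 8.95 and 9.17 with T34, 8.97, 9.13 and 9.09 with amdS6 and 8.11, 8.12 and 7.88 with amdS122. Here T34 and amdS6 overlapped and only amdS122 was below control.

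The wider jasmonate and wound list did not share the pattern as a whole. Of its 21 other probe sets, 4 (19.0%) were above control with amdS6 and below it with amdS122, against 11.6% of all probe sets. The 4 include the second ARG2 probe set (0.84 and -0.23). The lipoxygenase gene loxD came nearest, at 0.33 and -0.30, whereas AOS, which encodes allene oxide synthase of jasmonic acid synthesis, was below control with amdS122 (-1.43) and also with amdS6 (-0.21), and loxC was above control with both (1.14 and 0.90).

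Growth-related cell wall genes were the next set. XTH16, a xyloglucan endotransglucosylase/hydrolase, gave bright signals of 12.19, 12.10 and 11.98 in the control, 12.15, 12.10 and 12.03 with T34, 12.58, 12.57 and 12.60 with amdS6 and 11.79, 11.65 and 11.55 with amdS122. Its 3 probe sets agreed in direction, with differences of 0.50 and -0.43 for the member, and of 0.24 and -0.30, and 0.73 and -0.21, for the others. BR1, a brassinosteroid-regulated gene of the same enzyme family, differed from control by 0.39 with amdS6 and -0.31 with amdS122. The expansin gene exp18 missed the limit by the smallest margin in this direction, at 0.2998 and -0.4198. Other wall genes responded to both transformants alike, such as Cel1 (1.14 and 1.51) and XTH3 (-2.13 and -2.01). Counting the members, 11 of the 45 wall probe sets (24.4%) had the order of the 72. Without the members it was 9 of 43 (20.9%), against 11.6% of all probe sets. The 9 include the other XTH16 probe sets, so not all of them stand for further genes.

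The remaining annotated members were TPRP-F1, a proline-rich protein gene described from young tomato fruit (0.57 with amdS6 and -0.32 with amdS122), PDH (0.63 and -1.20), TKR (0.60 and -0.92) and LOC544001 (0.40 and -1.17). PDH gave 10.04, 10.06 and 9.95 in the control, 9.81, 9.83 and 9.71 with T34, 10.64, 10.65 and 10.66 with amdS6 and 8.93, 8.81 and 8.71 with amdS122. It showed the deepest fall of the named genes, 2.30-fold, with no overlap between any groups.

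**Figure D4:**
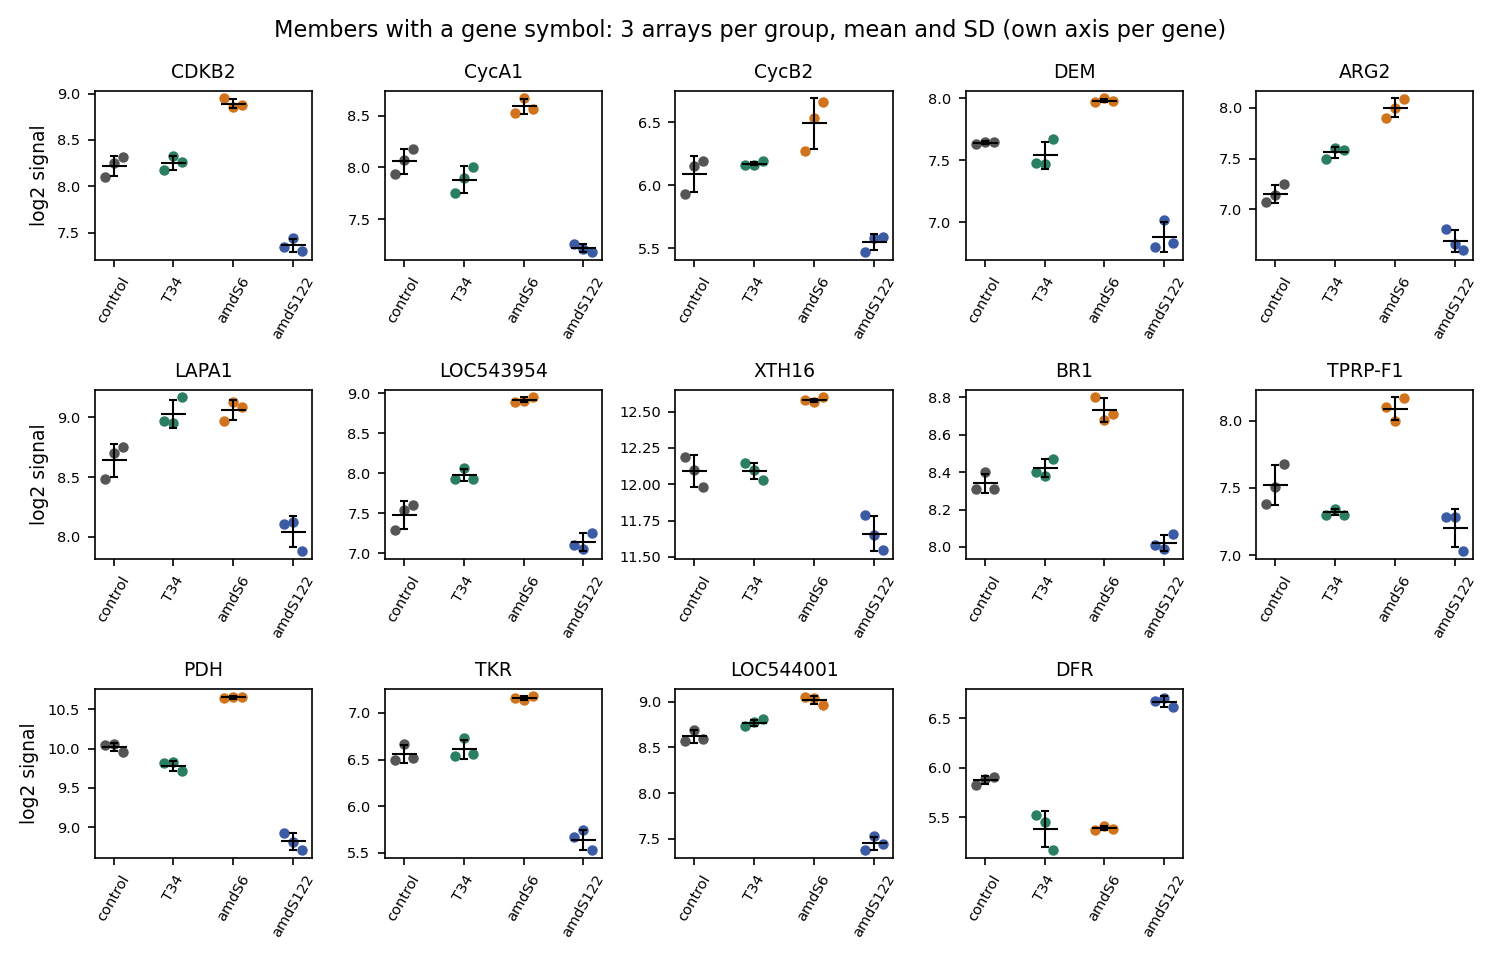
Log2 signal of the 14 annotated members on each array (points, 3 per group), with the group mean and SD (bars), each gene on its own vertical axis. In 13 panels the amdS6 mean is highest and the amdS122 mean lowest, although the T34 and amdS6 arrays of LAPA1 overlap. In the panel of DFR the amdS122 arrays stand above all others.

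The other 59 of the 72 probe sets carried no gene symbol, and several of them responded more widely than the named genes. Les.3034.1.S1_at had the largest fall with amdS122. It gave 8.87, 8.84 and 8.92 in the control, 8.20, 8.21 and 8.28 with T34, 9.82, 9.72 and 9.83 with amdS6 and 7.44, 7.50 and 7.62 with amdS122, so that the transformant groups were 4.82-fold apart. Les.2971.2.A1_at and Les.2971.1.S1_at, which share a cluster number in their identifiers, behaved alike, with differences of 0.95 and 1.06 with amdS6 and of -1.04 and -0.91 with amdS122. Les.2173.1.A1_at was 1.20 higher with amdS6 and differed by -0.74 with amdS122, and LesAffx.24204.1.S1_at by 0.68 and -0.96. Les.3186.3.A1_at had the largest rise with amdS6, 3.02-fold, from 8.77, 8.68 and 8.57 in the control to 10.21, 10.27 and 10.31.

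The 72 probe sets came from 60 clusters by this numbering, and 12 clusters held more than 1 of them, so they do not count as 72 separate transcripts. The array held 15 further probe sets of the same clusters, of which 8 were above control with amdS6 and below it with amdS122. The limit itself cut through a continuous distribution. Just inside it lay Les.4964.1.S1_at (0.4314 and -0.3049), Les.1189.1.A1_at (1.3772 and -0.3073) and LesAffx.66226.1.S1_at (0.4976 and -0.3082), and just outside it, after exp18, Les.5263.1.S1_at (0.2987 and -0.3243) and Les.4021.2.S1_at (0.9253 and -0.2984).

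DFR, the only gene of the reverse direction, encodes dihydroflavonol reductase, which commits flavonoid precursors to anthocyanins. Its signals were low, at 5.83, 5.89 and 5.91 in the control, 5.52, 5.45 and 5.17 with T34, 5.37, 5.41 and 5.38 with amdS6, and 6.68, 6.71 and 6.61 with amdS122. The amdS122 arrays stood above all others, the amdS6 and T34 arrays lay below control and overlapped each other, and amdS122 exceeded amdS6 by 2.43-fold. In all, 1.65% of probe sets had amdS6 arrays below and amdS122 arrays above all control arrays. The upstream enzymes of the pathway did not follow DFR, since the chalcone synthase genes CHS1 (1.52 with amdS6 and 0.76 with amdS122) and CHS2 (1.51 and 0.24) were above control with both. The nearest probe sets outside the limit in this direction were Les.1724.1.S1_at (-0.3066 and 0.2867), LesAffx.21940.1.A1_at (-0.3908 and 0.2738) and PR-P2, a pathogenesis-related protein gene (-0.2612 and 0.8424).

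The wild-type strain offered the comparison that the choice of probe sets had not used on its own side, since no T34 array entered the rule, although the control arrays did and are shared by all comparisons. By limma at an adjusted p below 0.1, 14 of the 72 (19.4%) differed between T34 and control, against 9.89% of all probe sets. Of these, 12 were higher with T34 (5.72% of all) and 2 lower (4.17%), and 58 were not called. With the dimmest 30% of all probe sets removed, 66 of the 72 were left. Of these, 11 were higher and 2 lower, and the share called among all remaining probe sets was 15.6%. The 9.89% thus includes many dim probe sets, which are rare among the 72. After scaling to the hybridisation spikes, 5 were higher and 1 was lower, and 1.26% of all probe sets were called. Array weights gave 12 higher and 7 lower (18.7% of all called), and the control and T34 arrays fitted alone gave 7 and 3 (5.68%). The T34 differences of the 72 ran from -0.65 to 0.53 with a median of -0.01, and 64 were smaller than 0.3 in size.

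**Figure D5:**
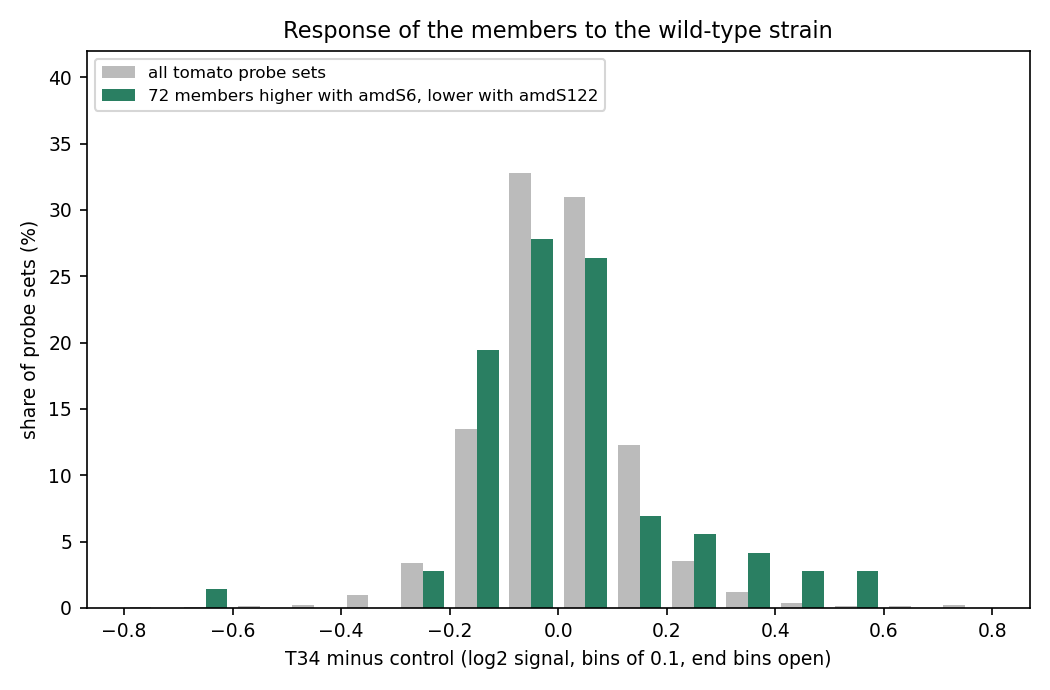
Share of probe sets (vertical axis, %) by T34 minus control (horizontal axis, log2 signal in bins of 0.1, end bins open), for all 10038 probe sets (grey) and the 72 members (green). Most members lie within 0.3 of control, 7 are at least 0.3 higher with T34 and 1, Les.3034.1.S1_at, is lower by 0.65.

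By function, 0 of the 15 cell division probe sets were called with T34, against 9.89% of all probe sets, and 3 (CycA1, CDKA1 and krp1) were lower at an unadjusted p under 0.05. The difference was 0.04 for CDKB2 (95% interval -0.10 to 0.17), -0.18 for CycA1 (-0.34 to -0.02, adjusted p = 0.187 by limma) and 0.08 for CycB2 (-0.12 to 0.28). DEM (-0.10, interval -0.24 to 0.04), XTH16 (0.00, -0.14 to 0.15) and BR1 (0.08, -0.03 to 0.19) were not called either, nor were TKR (0.05, -0.10 to 0.19) and TPRP-F1 (-0.20, -0.39 to -0.02). Some of these gained a call as lower in other fits: CDKA1 in 5 of 14, among them the fit with the replicate number as a block (-0.15, adjusted p = 0.0699 by limma), krp2 in 2, CycA1 with array weights (-0.22, adjusted p = 0.0366 by limma), and TPRP-F1 with array weights (adjusted p = 0.0937 by limma) and without control replicate 1 (adjusted p = 0.0982 by limma). Each of the 3 wound-inducible members was higher with T34. LOC543954 rose by 0.50 (SE 0.081, adjusted p = 0.00371 by limma), ARG2 by 0.41 (SE 0.069, adjusted p = 0.00438 by limma) and LAPA1 by 0.39 (SE 0.089, adjusted p = 0.0253 by limma), and all 3 were called at the same threshold in each of 14 other fits. In the whole jasmonate and wound list, 7 of 24 probe sets were higher with T34 and 1 was lower, against 5.72% and 4.17% of all probe sets (8 and 0 with the block). The other risers were a second ARG2 probe set, AOS, loxC and TD2, a threonine deaminase of leaf defense that had the largest T34 difference of the list (1.33, adjusted p = 7.85e-06 by limma) and lay near control with amdS6 (-0.05) and amdS122 (0.11).

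Among the other members, DFR was lower with T34 by 0.50 (difference -0.50, SE 0.074, adjusted p = 0.00199 by limma), but not with spike scaling (adjusted p = 0.239 by limma). PDH was lower as well (-0.23, SE 0.057, adjusted p = 0.0348 by limma), but not without control replicate 2 (adjusted p = 0.113 by limma) or T34 replicate 3 (adjusted p = 0.105 by limma), nor with spike scaling (adjusted p = 0.963 by limma). The call of LOC544001 (0.16, adjusted p = 0.0978 by limma) was kept in only 4 of 14 other fits. Les.3034.1.S1_at fell most (-0.65, adjusted p = 2.88e-05 by limma), in the direction of amdS122 and against that of amdS6. Les.2971.1.S1_at (0.53, adjusted p = 0.00119 by limma), Les.2173.1.A1_at (0.42, adjusted p = 0.00217 by limma) and Les.2971.2.A1_at (0.32, adjusted p = 0.00459 by limma, and 0.239 with spike scaling) rose.

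RNA quality and the signals of the hybridisation spikes also varied among the groups. The difference between 3′ and 5′ control probe sets, which grows as transcripts are shortened, was 3.37 ± 0.072 in the control, 3.23 ± 0.047 with T34, 3.06 ± 0.064 with amdS6 and 2.85 ± 0.13 with amdS122 (SD, n = 3). The hybridisation spikes averaged 10.51 in the control, 10.42 with T34, 10.15 with amdS6 and 10.48 with amdS122. Scaling on them moved the median difference of all probe sets from 0.02 to 0.37 with amdS6, from 0.03 to 0.05 with amdS122 and from 0.00 to 0.09 with T34. With that scaling, 66 of the 72 remained among 189 probe sets of their direction, and DFR no longer reached the limit. Counting the members, 12 of the 15 cell division probe sets (80.0%) then had the sign order of the 72, against 33.9% of all probe sets. Of the 45 wall probe sets, members included, 15 (33.3%) had it. The part of these quantities in the response was not tested.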

How the data were processed

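RNA from pooled aerial parts was hybridised to 12 Affymetrix arrays, 3 for each of 4 groups. The authors deposited log2 values made by robust multichip averaging (RMA) in Expression Console, with background correction and quantile normalization; the table held 10209 probe sets, of which 10038 were tomato probe sets. The members and gene lists were chosen with earlier results of these data known. Gene symbols of 909 probe sets came from the platform annotation (1 symbol each; 885 matched RefSeq by gene identifier), and the other probe sets are unnamed here; array sequences and coordinates were not used here.

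Group means were compared with the control mean. T34 was tested against control with limma 3.58.1 (R 4.3.3) on all 12 arrays, 1 mean per group, with Benjamini-Hochberg adjustment over 10038 probe sets and calls at an adjusted p of 0.1; limma replaced the multi-class SAM of the study, which gives no single contrast. Text names all members with a symbol, 5 without one that had the largest smaller-of-both differences, and those nearest the limit; Les.3186.3.A1_at, LesAffx.31716.1.S1_at and the list genes were named after their values were seen. On simulated data without replicate effects, 99 of 100 changes of 2-fold between T34 and control were called in the right direction, beside 12 unchanged probe sets. No member differed 2-fold with T34, so this does not tell how often changes of their size are called. Deviations of same-numbered control and T34 arrays correlated at 0.354, 0.171 and 0.549, so the numbers were taken to pair these groups. The main fit nevertheless has no replicate term, so its T34 p-values and intervals ignore this pairing. The fit with the replicate number as a block is given beside it as an alternative. P-values rest on the spread between plant pools within groups, shared over all 4 groups and 12 arrays, and the 3 pools per group limit precision.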

Additional observations from a re-analysis of the deposited data

How the results depend on the processing

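The 72 probe sets higher with amdS6 and lower with amdS122 became 189 with spike scaling, 148 with a limit of 0.2, 18 with 0.5 and 334 with 0.1 (the last chosen after seeing the data), and 69 to 79 without any 1 array or replicate number. The reverse direction held 1 probe set, but 2 after further quantile normalization, 0 with spike scaling, 0 without dim probe sets, 27, 0 and 205 at limits of 0.2, 0.5 and 0.1, and 1 to 4 without any 1 array or number; without control replicate 1 or amdS6 replicate 3 it held 3, and without amdS122 replicate 3 it held 4. Of the 14 calls with T34 among the 72, 6 were left with spike scaling and 0 with a 2-fold minimum, which 9 of all probe sets met; 19 were called with array weights, and 10 to 11 without any 1 array. The call of DFR was lost with spike scaling, with the dim filter and with the 2-fold minimum (0 in each), the filter having removed the probe set, and its count was 1 to 1 without any 1 array. With the replicate number as a block, 13 of the 72 were called and Les.470.1.S1_at lost its call (adjusted p = 0.105 by limma), and the block changed no other call of a member. Of the named genes' differences from control under spike scaling or without 1 array, 29 moved by over 1 SD, all under spike scaling, and 370 did not; no called difference changed sign. The causes were not tested, except where the limit, the filter or the fold minimum sets the count.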
